A study of Mus musculus with 34 samples.

Results

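The genes described here make the building blocks of nucleic acids and the polyamines. They are 33 of the 22712 genes tested on the arrays. They were chosen by name from general knowledge of these pathways, with earlier results of these data known. By step they comprise 13 genes of purine synthesis and salvage, 5 of pyrimidine synthesis and salvage, 7 of deoxynucleotide supply, 4 of polyamine synthesis, and 4 that make phosphoribosyl pyrophosphate (PRPP, the activated sugar for both nucleotide routes) or move phosphate between nucleotides. In all, 32 were found by the gene name on the array, and Hprt by its transcript accession.

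RNA of mouse livers and liver tumors was labelled with Cy3 and hybridised on 34 Agilent two-color arrays against a Cy5-labelled pool from reference mice of both sexes. Control livers carried no transgene and came from mice not given doxycycline (3 samples). Tumors, also without doxycycline, came from mice transgenic for c-Myc (7), for TGFα (3) or for both (3). The remaining livers came from mice of the same 3 genotypes after doxycycline had turned the transgenes off for 4 weeks (3 samples per genotype) or 12 weeks (3 per genotype). The labels name C57BL/6 and liver for the reference pool. The age of the mice and the promoter that drives the transgenes are not given in the sources used here. Each sample is labelled as a biological replicate, and nothing says whether any came from 1 animal or litter.

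Dividing cells build purines on PRPP in a chain of steps that ends at IMP, which is then turned into AMP and GMP, and build pyrimidines through a separate chain that ends at UMP and CTP. Ribonucleotide reductase turns ribonucleotides into deoxynucleotides, and thymidylate synthase adds the thymine base. Ornithine decarboxylase opens polyamine synthesis, which yields spermidine and spermine. Myc is a transcription factor that binds the E-box letters CACGTG, and several of these enzymes, Odc1 and Cad among them, are textbook Myc targets. TGFα is a ligand of the EGF receptor.

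Promoter sequences were found for 30 of the 33 genes among RefSeq windows of 300 bases on GRCm38.p6, 250 before and 50 after the annotated start. CACGTG, which reads the same on both strands, lay in the window of 7 of the 30 (23.3%), against 8.09% of the 27025 genes with a window. The copies that lie before the start follow, in 60 bases each, since these 7 are the members whose window holds the letters that Myc binds. Capitals mark the CACGTG, and each sequence runs 5′ to 3′ on the strand of the gene. Nme1 has 2 annotated starts and 1 copy before each.
Paics (chr5:76951072-76951131, plus strand): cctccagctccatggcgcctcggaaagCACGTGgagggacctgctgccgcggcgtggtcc
Atic (chr1:71557096-71557155, plus strand): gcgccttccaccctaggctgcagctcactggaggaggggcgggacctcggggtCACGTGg
Impdh2 (chr9:108560299-108560358, plus strand): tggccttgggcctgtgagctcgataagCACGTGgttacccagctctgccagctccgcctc
Tyms (chr5:30073654-30073713, minus strand): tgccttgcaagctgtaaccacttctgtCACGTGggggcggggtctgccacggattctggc
Dtymk (chr1:93802050-93802109, minus strand): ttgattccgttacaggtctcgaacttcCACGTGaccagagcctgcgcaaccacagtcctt
Sms (chrX:157492451-157492510, minus strand): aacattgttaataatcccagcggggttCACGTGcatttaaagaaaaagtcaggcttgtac
Nme1, first start (chr11:93968273-93968332, minus strand): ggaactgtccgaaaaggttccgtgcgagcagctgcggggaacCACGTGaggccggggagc
Nme1, second start (chr11:93968026-93968085, minus strand): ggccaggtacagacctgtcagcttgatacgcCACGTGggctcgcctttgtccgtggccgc
The windows of Odc1 and Cad held no CACGTG. Bases outside the windows, such as those beyond 50 after the start, were not searched, so copies there could not be seen. Of the 7 genes with the letters 6 were higher in Myc tumors than in controls, and of the 23 without them 17 were. The longer E2F-type letters TTTCGCGC and TTTGGCGC, searched on both strands, lay in the window of 0 of the 30 genes. They lay in that of 0.374% and 0.585% of all genes with a window. At shares this low, 0 of 30 cannot tell the members from other genes, nor show that E2F sites are absent. A match describes the letters of the window and no binding was measured.

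Values are log2 of sample over reference (Cy3 over Cy5) at the gene's brightest probe. All 33 probes were well above background on all 34 arrays. Differences are between group means on this log2 scale, so a difference of 1 is a doubling, and a gene was called where the limma fit over 31 arrays gave a Benjamini-Hochberg adjusted p, taken over all genes, under 0.05. Fewer cells of a type and less RNA per cell cannot be told apart in these tissue samples.

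Some arrays stood apart, and their values bear on what follows. TGFα tumors 2 and 3 and the TGFα off 4 weeks replicate 1 were hybridised against a reference of another profile: in its Cy5 channel the intestine markers lay at percentile 99.7 of all genes, against 58.3 or below on the other 31 arrays, and the hepatocyte markers at 85.9 to 91.8, against 99.3 or above. In their own Cy3 channel the hepatocyte markers lay at percentile 71.8 to 88.5, against 96.8 or above elsewhere. These 3 arrays are left out of every test here. In 6 of the 7 Myc tumors the Myc probe A_52_P108346 read between 2.50 and 6.25, while Myc tumor 5 read 1.04 and the controls -1.07 to 0.17. In the TGFα/Myc tumors it read 4.65, 5.48 and 0.83, the last in replicate 3. The library labelled TGFα tumor 1 read 3.28 at this probe and correlated best, over all genes tested, with Myc tumor 1 (r = 0.900 across genes, which are not independent). The Myc probe A_51_P102096 read -0.96 to 0.43 in the Myc tumors and -0.54 to 0.16 in the controls. For TGFα/Myc off 4 weeks replicate 3, the mean correlation with the other replicates was 0.133. Another scanner was used for Myc tumors 2 to 7 and for no other sample.

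**Figure D1:**
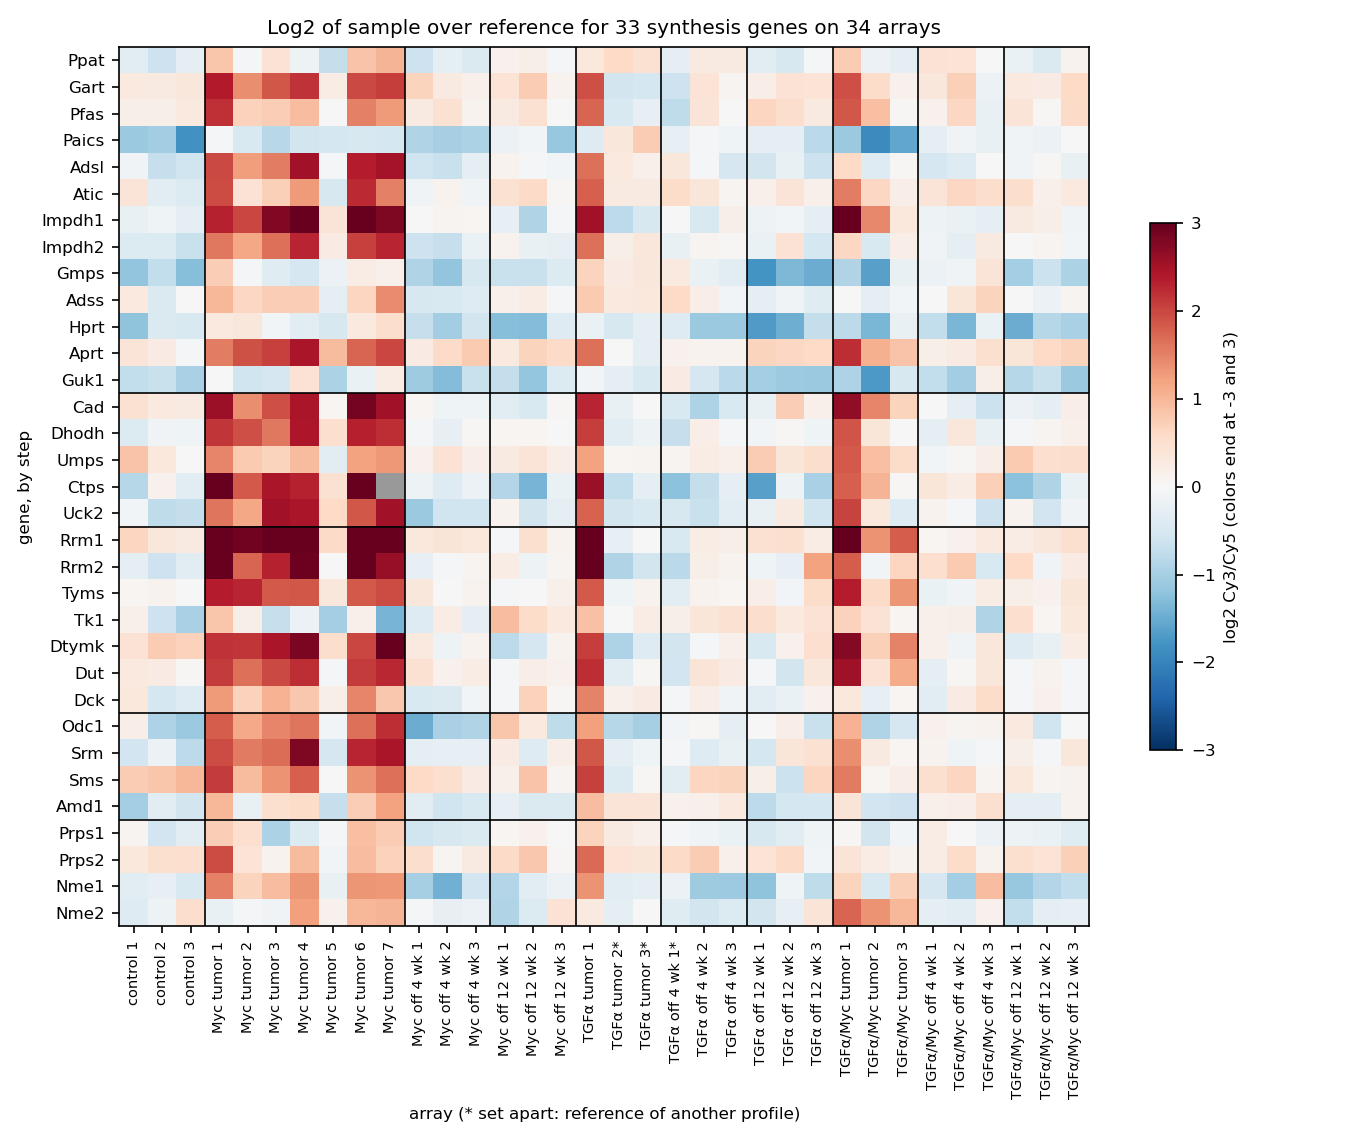
Log2 of sample over reference (color, ending at -3 and 3) for each of the 33 genes (rows, by step) on each of the 34 arrays (columns, by group); asterisks mark the 3 arrays set apart and grey a spot left out as an outlier. Most rows are red in 6 of 7 Myc tumors, in TGFα tumor 1 and in TGFα/Myc tumor 1, and pale elsewhere; Paics, Tk1 and Nme2 do not follow the rest.

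Myc tumors held more of most of these transcripts than control livers. Of the 33 genes, 25 were higher and 0 lower, at a median difference of 1.31 over the 33, and all 33 differences were above 0. Across all genes tested, 18.1% were higher and 16.4% lower, at a median difference of -0.012. Every Myc tumor lay above every control in 11 of the genes with 7 measured tumors and in Ctps, measured in 6, while 10.5% of all genes had groups that did not overlap in this direction. Myc tumor 5 was the lowest Myc tumor in 28 of the 33 genes. Without it, 28 genes were called. By step, 11 of 13 purine, 4 of 5 pyrimidine, 6 of 7 deoxynucleotide, 3 of 4 polyamine and 1 of 4 PRPP and phosphate-transfer genes were higher. Controls and Myc tumors shared only 1 scan day. On it, Myc tumor 1 exceeded control 2 in 32 of 33 genes, at a median of 1.81. With scan day as a block the comparison rests on this pair alone, since the other Myc tumors shared no scan day with another group. The block therefore adds no reading beyond this pair, and its calls are not counted.

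Among the deoxynucleotide genes, both subunits of ribonucleotide reductase rose most. Rrm2, its small subunit, read -0.30, -0.63 and -0.32 in the 3 controls and -0.01 to 3.66 in the 7 Myc tumors, with a median of 2.61. Every tumor lay above every control, Myc tumor 5 by the least. The difference was 2.80 ± 0.53 (SE), a 6.97-fold higher level (adjusted p = 0.000307). Rrm1, the large subunit, read 0.65, 0.35 and 0.26 in controls and 0.57 to 3.43 in Myc tumors, with a median of 3.17. Here Myc tumor 5, at 0.57, fell within the controls and the other 6 lay at 2.90 or above. The difference was 2.40 ± 0.44 (adjusted p = 0.000195). Tyms, thymidylate synthase, read 0.06, 0.11 and 0.02 in controls and 0.34 to 2.35 in Myc tumors, a difference of 1.72 ± 0.31 (adjusted p = 0.000211). A dimmer Tyms probe gave 1.67 and the dimmest -0.37 (adjusted p = 0.0345 over probes). Dut, which breaks down dUTP, and Dtymk, which phosphorylates dTMP, were higher by 1.56 ± 0.38 and 1.57 ± 0.40. Dck, the deoxycytidine salvage kinase, was higher by 1.09 ± 0.24.

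Tk1, the salvage kinase for thymidine and a classic S-phase gene, was the exception. It read 0.16, -0.62 and -0.97 in controls and -1.38 to 0.84 in Myc tumors, with a median of -0.18. The groups overlapped, and the difference was 0.18 ± 0.35 (adjusted p = 0.736). Myc tumor 1, the only Myc tumor on the scanner used for the controls, gave the highest value, 0.84. Tk1 was among the genes called with scan day as a block, so its reading depends on how the arrays are grouped. The array carries 1 Tk1 probe, so no second reading was possible. All 14 S-phase and mitosis markers listed beside the members were higher in the same tumors, at a median difference of 2.65, with Mki67 at 3.84 and Mcm6 at 4.36.

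In pyrimidine synthesis, Cad, which carries the opening steps on a single protein, read 0.46, 0.29 and 0.28 in controls and 0.05 to 2.87 in Myc tumors, with a median of 2.46. All but Myc tumor 5 lay above the controls, and the difference was 1.63 ± 0.43 (adjusted p = 0.00474). Dhodh, the mitochondrial step, read -0.42, -0.11 and -0.13 in controls and 0.50 to 2.42 in Myc tumors. The groups did not overlap, and the difference was 2.10 ± 0.33 (adjusted p = 4.07e-05). Ctps, which makes CTP from UTP, was higher by 2.53 ± 0.46 (adjusted p = 0.000209; 6 tumors, since 1 spot was an outlier). Uck2, the uridine and cytidine salvage kinase, was higher by 2.34 ± 0.41 (adjusted p = 0.000134). Umps, which makes UMP, differed by 0.49 ± 0.28 at its brightest probe (adjusted p = 0.185). A dimmer Umps probe differed by 1.06 (adjusted p = 0.00255) and the dimmest by 0.07 (adjusted p = 0.680).

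In the purine chain, 11 of 13 genes were higher. Of the steps to IMP, Gart was higher by 1.43 ± 0.35, Adsl by 2.19 ± 0.36, Atic by 1.21 ± 0.38, Paics by 0.84 ± 0.20 and Ppat, the committed step, by 0.72 ± 0.28 (adjusted p = 0.0462). Pfas differed by 0.83 ± 0.34 and missed the threshold (adjusted p = 0.0587), but passed without Myc tumor 5 (adjusted p = 0.0119). Of the branch to GMP, Impdh2 read -0.42, -0.42 and -0.67 in controls and 0.25 to 2.29 in Myc tumors, with a median of 1.64. The groups did not overlap, and the difference was 2.12 ± 0.31 (adjusted p = 2.21e-05). Impdh1, its paralog, was higher by 2.58 ± 0.45 (adjusted p = 0.00015) and Gmps, the closing step to GMP, by 1.06 ± 0.25. Adss, on the branch to AMP, was higher by 0.75 ± 0.22. From the Cy3 channel alone, without the reference, Gart, Gmps and Adss differed by 0.89, 0.46 and 0.53 and were not called (adjusted p = 0.0568, 0.145 and 0.0933). The salvage enzymes Aprt and Hprt were higher by 1.60 ± 0.24 and 0.78 ± 0.29, and Guk1, the GMP kinase, differed by 0.57 ± 0.28 (adjusted p = 0.122). Some of these limma calls were lost without 1 control. Without control 1, Hprt differed by 0.53 (adjusted p = 0.243) and Ppat by 0.77 (adjusted p = 0.0832). Without control 2, Ppat differed by 0.61, Adss by 0.55 and Atic by 1.10 (adjusted p = 0.176, 0.105 and 0.0727). Atic also lost its call without control 3.

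In polyamine synthesis, Odc1, ornithine decarboxylase, read 0.19, -0.92 and -1.11 in controls and -0.08 to 2.20 in Myc tumors, with a median of 1.61. All but Myc tumor 5 lay above the controls. The difference was 2.01 ± 0.42 (adjusted p = 0.000792), and the spot was saturated in 2 of the tumors. Srm, spermidine synthase, was higher by 2.26 ± 0.44 (adjusted p = 0.000357), and Amd1, which supplies the aminopropyl donor, by 1.08 ± 0.29 (adjusted p = 0.00528). From the Cy3 channel alone Amd1 differed by 0.26 and was not called (adjusted p = 0.664). Sms, spermine synthase, differed by 0.44 ± 0.35 (adjusted p = 0.348). Sms already stood at 0.76, 0.84 and 1.01 in the controls, above the reference pool.

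Of the genes shared by both routes, Nme1 was higher by 1.31 ± 0.36 (adjusted p = 0.00718). Its neighbour Nme2, a near-identical paralog, differed by 0.44 ± 0.32 (adjusted p = 0.308), and its spot was saturated in 4 of the 7 Myc tumors. Whether each probe reads only its own gene was not tested. The PRPP synthetases Prps1 and Prps2 differed by 0.49 ± 0.27 and 0.27 ± 0.28 (adjusted p = 0.174 and 0.492). The second Prps1 probe was higher by 0.96 (adjusted p = 0.0132). Of the 20 genes with several kept probes, all probes had the same sign in 17.

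**Figure D2:**
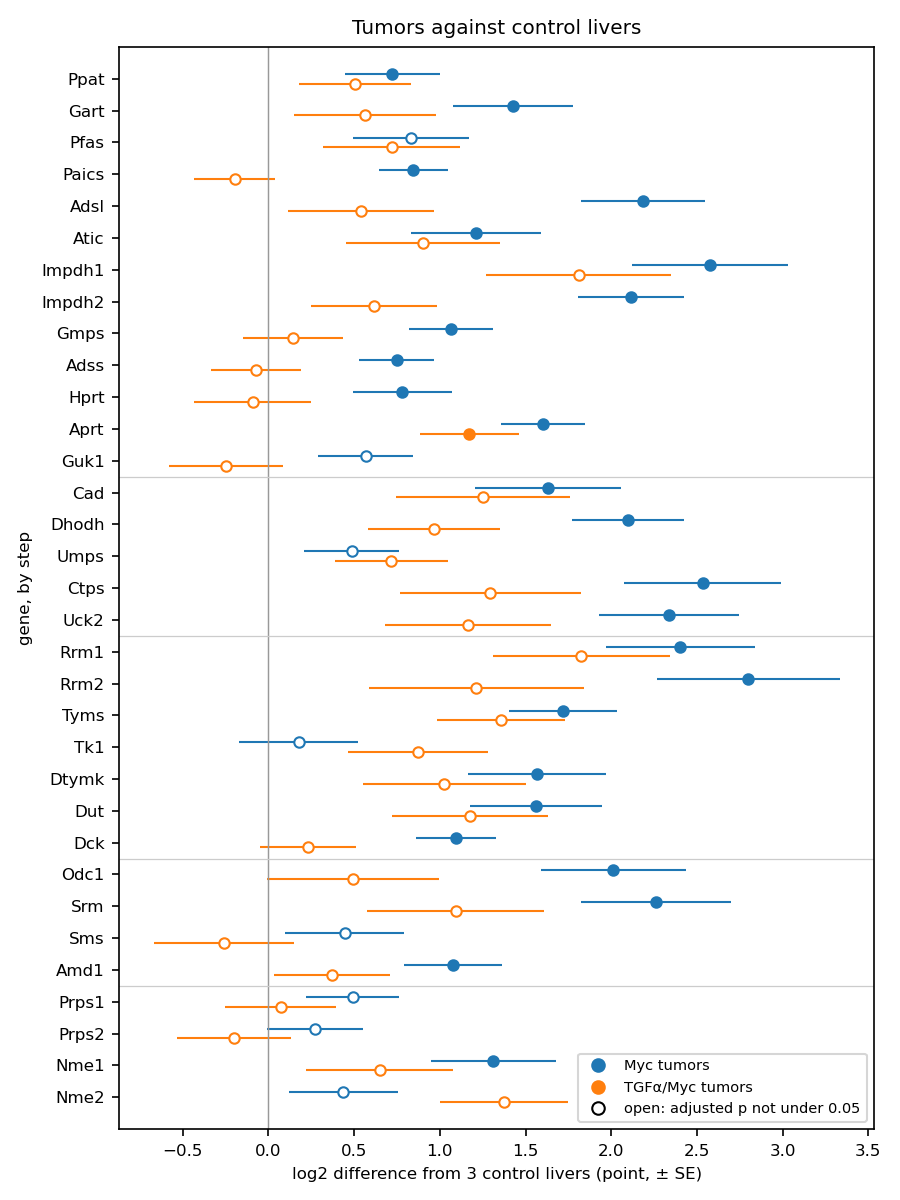
Log2 difference from the 3 control livers (x axis; point ± SE) of each gene (y axis, by step) in the 7 Myc tumors (blue) and the 3 TGFα/Myc tumors (orange); filled points passed the adjusted p threshold of 0.05. In Myc tumors 25 points are filled, and in TGFα/Myc tumors only that of Aprt.

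The steps differed in size. With each gene set against its control mean, the median difference in Myc tumors was 2.10 for pyrimidine, 1.57 for deoxynucleotide, 1.54 for polyamine and 1.06 for purine genes, and 0.46 for PRPP and phosphate-transfer genes. The pyrimidine median exceeded the purine median in 7 of 7 Myc tumors, the deoxynucleotide median in 7 of 7 and the polyamine median in 6 of 7. These are descriptions of 4 to 13 genes a step, and no test was made of their order. In Myc tumor 5 the medians were 0.21 for purine, 0.72 for pyrimidine, 0.16 for deoxynucleotide and -0.02 for polyamine genes, nearer to the controls than any other Myc tumor in these steps.

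**Figure D3:**
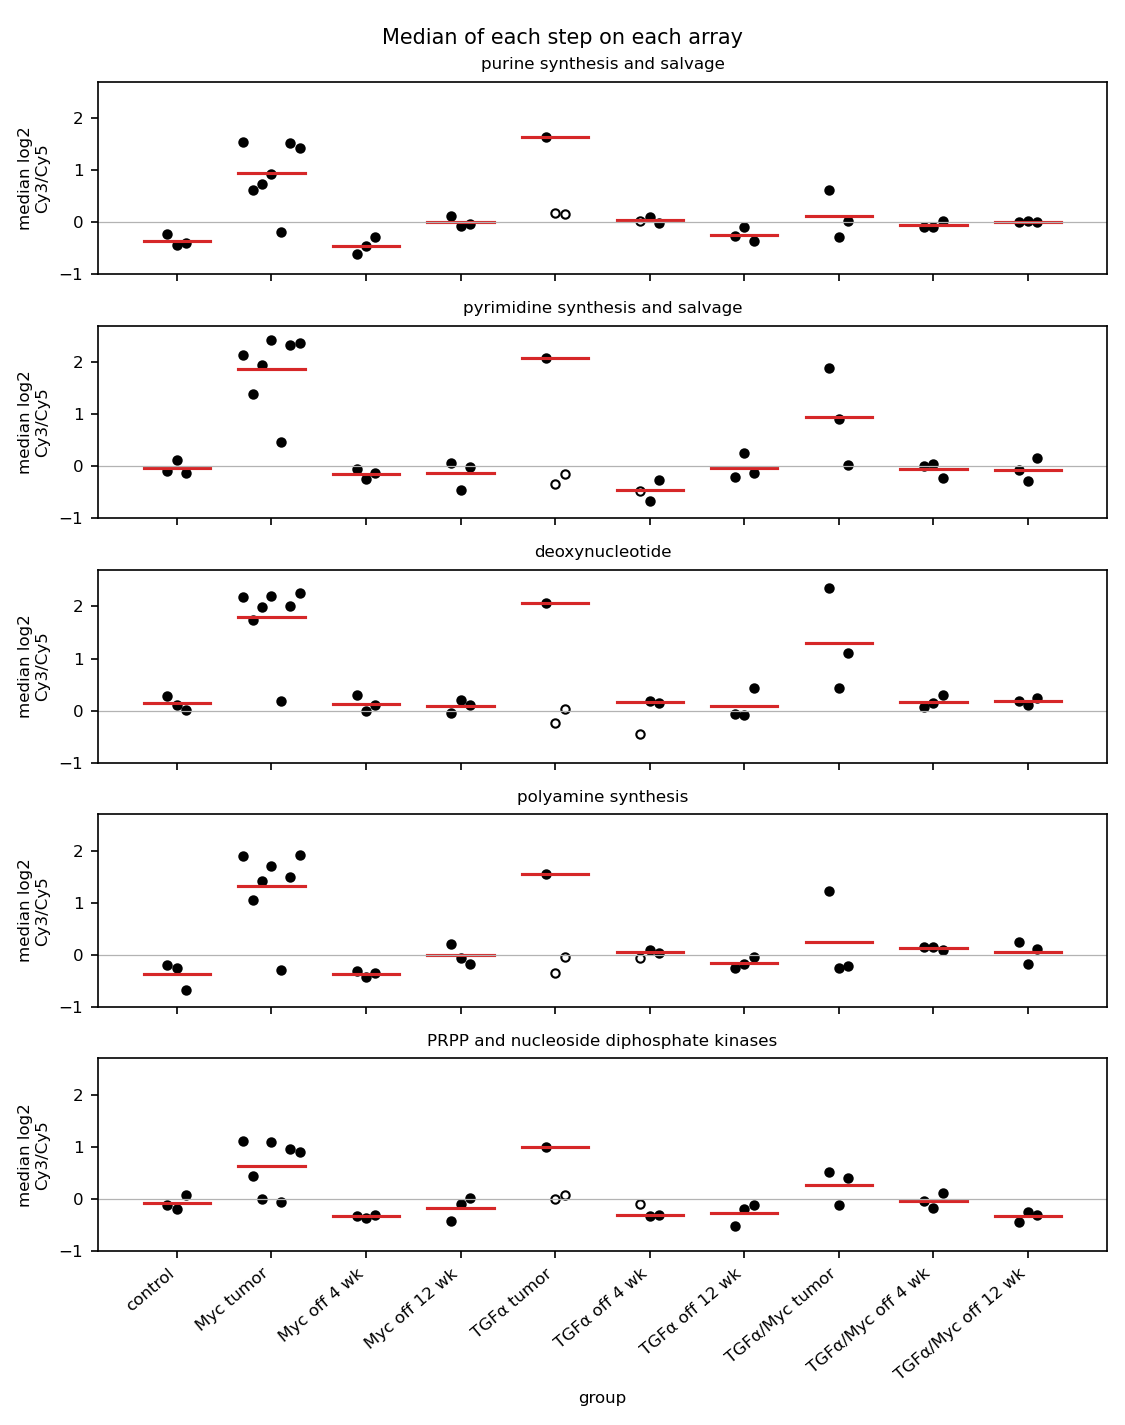
Median log2 of sample over reference of the genes of each step (panels) on each array (points), by group; red lines are group means over filled points, and open points are the 3 arrays set apart. Myc tumors, apart from replicate 5, lie above the controls in the purine, pyrimidine, deoxynucleotide and polyamine panels, and the livers with transgenes off lie near them.

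Genes around these pathways moved in both directions in Myc tumors. Of 23 measured genes of nucleotide breakdown and nucleoside salvage, 2 were higher and 11 lower, at a median difference of -0.58. The lower ones included Dpys and Dpyd of pyrimidine breakdown (-3.04 and -2.39), Upp2 (-2.37) and Tymp (-1.56), which split nucleosides; Nt5c2 and Pnp were higher by 1.12 and 0.68. Of 10 folate and one-carbon enzymes, 3 were higher and 3 lower. Among the higher ones, the mitochondrial Mthfd1l rose by 3.82 ± 0.43 (adjusted p = 1.17e-06) and Mthfd2 by 1.06, while Aldh1l1, Fpgs and Mthfs fell by 1.70, 0.45 and 0.79. Of 21 nucleotide kinases, paralogs and other nucleotide enzymes, 8 were higher, led by Ctps2 (2.43 ± 0.23), Ak4 (1.56) and Dctpp1 (1.20), and Ak3 was lower (-1.28). Of 16 genes of polyamine turnover and use, 6 were higher, led by Mat2a (1.44), Sat1 (1.21) and Mtap (1.29), and 3 were lower: Agmat (-1.24), Sat2 (-0.93) and Oat (-1.51). Hepatocyte markers moved with these results: 6 of 9 measured were lower and 0 higher, and their median log2 ratio ran from -2.74 to 0.03 in Myc tumors and from -0.20 to -0.00058 in controls, with 0.03 in Myc tumor 5. Of 6 endothelial markers, 2 were lower and 0 higher. Of 7 macrophage and leukocyte markers, 2 were higher and 2 lower. The part of these cell types in the result was not tested.

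Of the 33 genes, 1 was higher in TGFα/Myc tumors than in controls and 0 lower, against 1.08% and 0.955% of all genes; 14 had an unadjusted p under 0.05, and 27 differences were above 0, at a median of 0.72. In 10 genes every tumor lay above every control, against 9.12% of all genes. On the scan day that tumors 1 and 2 shared with control 1, 25 genes were higher in the tumors and 8 lower, at a median of 0.68. The called gene was Aprt, which salvages adenine. It read 2.21, 1.06 and 0.86 in the tumors and 0.39, 0.26 and -0.03 in the controls, with no overlap, and differed by 1.17 ± 0.29 (adjusted p = 0.0321). Its call was kept in 13 of 21 alternative settings. TGFα/Myc tumor 1 was the highest of the 3 in 29 of 33 genes. Odc1 shows the spread: it read 1.04 in tumor 1, and -0.91 and -0.49 in tumors 2 and 3, both within the range of the controls. Rrm1 read 3.56, 1.35 and 1.81, all above the controls, and differed by 1.82 ± 0.52 (adjusted p = 0.068). Tyms differed by 1.36 ± 0.37 (adjusted p = 0.0577), Impdh1 by 1.81 ± 0.54 (adjusted p = 0.0827) and Nme2 by 1.37 ± 0.37 (adjusted p = 0.0563). With Myc tumor 5, TGFα/Myc tumor 3 and TGFα/Myc off 4 weeks replicate 3 left out, a choice made after their values were seen, 13 genes were called higher in the 2 remaining TGFα/Myc tumors, among them Cad, Ctps, Dhodh, Impdh1, Rrm1, Srm and Tyms, against 4.27% of all genes. Without TGFα/Myc tumor 3 alone the count was 4 and without tumor 2 it was 3, while without tumor 1, or without any 1 of the 3 controls, it was 0. Of the 14 S-phase and mitosis markers 3 were higher in these tumors, and of the 9 hepatocyte markers 0 were called.

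Set directly against each other, Myc tumors exceeded TGFα/Myc tumors in 12 genes and were lower in 1, against 12.5% and 11.5% of all genes. Of these, 7 were purine genes: Paics (1.04 ± 0.20), Adsl (1.65 ± 0.36), Impdh2 (1.50 ± 0.31), Gmps, Adss, Hprt and Guk1. The others were Dhodh, Uck2, Rrm2, Dck and Odc1 (1.52 ± 0.42, adjusted p = 0.0116). Rrm2 differed by 1.59, but by 0.43 to 0.84 and with no call from the Cy3 channel alone, without background subtraction, with the Agilent ratio and with the series matrix (adjusted p = 0.444 to 0.613). Without TGFα/Myc tumor 3, Uck2 moved from 1.17 to 0.65 (adjusted p = 0.325) and Dhodh from 1.13 to 0.75 (adjusted p = 0.147). Without TGFα/Myc tumor 2, Odc1 came to 1.13 (adjusted p = 0.135), Gmps to 0.56 (adjusted p = 0.161) and Guk1 to 0.47 (adjusted p = 0.348). Dck differed by 0.86, and by 0.31 from the Cy3 channel alone (adjusted p = 0.417). Nme2 was the gene lower in Myc tumors (-0.93 ± 0.32, adjusted p = 0.0341), with 1.74, 1.35 and 1.00 in the TGFα/Myc tumors and -0.23 to 1.24 in the Myc tumors. Its spot was saturated in 4 of the 7 Myc and 1 of the 3 TGFα/Myc tumors. The call was kept in 15 of 27 alternative settings, and was lost at -0.26 with the Agilent ratio (adjusted p = 0.599), -0.25 from the Cy3 channel alone (0.288), -0.56 with the series matrix (0.217) and -0.67 without background subtraction (0.139). Paics was the only member whose tumor groups did not overlap (6.23% of all genes did not in this direction): it read -1.12, -1.91 and -1.56 in TGFα/Myc tumors and -0.83 to -0.03 in Myc tumors. The count rested on single arrays, with 3 genes called without TGFα/Myc tumor 2 and 21 without Myc tumor 5. No Myc tumor shared a scan day with a TGFα/Myc tumor, and Myc tumors 2 to 7 were read on another scanner. With scan day as a block only Myc tumor 1 enters for the Myc tumors, through the controls, so no count is given. Of the markers, 6 of 9 for hepatocytes and 4 of 6 for endothelium were lower and 4 of 14 for S phase and mitosis higher in Myc tumors, and their part was not tested.

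The library labelled TGFα tumor 1 had high values in most of these genes, such as 3.33 for Rrm2, 2.28 for Cad, 1.64 for Impdh2 and 1.23 for Odc1. Its median was 1.66 over the 33 genes, and it read -0.39 for Paics, -0.19 for Hprt and -0.08 for Guk1. Its Myc probe values were given above, and as 1 library it was given no test. The other TGFα tumors, on their separate reference, read -0.90 and -0.54 for Rrm2 and -0.865 and -0.999 for Odc1. In the Cy3 channel alone, less the control mean, their medians over the 33 genes were 0.43 and 0.40, with 6 and 7 genes more than 1 above the controls.

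With Myc turned off, most of these transcripts were low again. After 4 weeks, 26 of the 33 genes were lower than in Myc tumors and 0 higher, against 16.9% and 13.7% of all genes, at a median difference of -1.28. In 16 genes every off liver lay below every tumor (10.8% of all genes). After 12 weeks 22 were lower and 0 higher, against 16% and 14.5%, at a median of -1.28, with 10 genes that did not overlap (8.37%). Odc1 read -1.49, -0.97 and -0.91 at 4 weeks, below every Myc tumor, and fell by 2.52 (adjusted p = 0.000118). It read 0.84, 0.28 and -0.77 at 12 weeks, and fell by 1.28 (adjusted p = 0.0239), but the call was lost without off liver 3, at -0.84 (adjusted p = 0.208), and without off liver 2 (adjusted p = 0.0534). Uck2 and Rrm1 fell by 2.58 and 2.48 at 4 weeks, and Ctps and Impdh1 by 3.01 and 2.76 at 12 weeks. Tk1 was the 1 gene whose 4-week difference was above 0 (0.15). On the scan day that held Myc tumor 1 and all 3 livers off Myc for 4 weeks, 32 of 33 genes were lower, at a median of -1.91. With scan day as a block, the 4-week comparison rests on these same arrays. At 12 weeks no Myc tumor shared a day with an off liver, and only Myc tumor 1 could enter, through the controls. All 14 S-phase and mitosis markers were lower at both times, and of the 9 hepatocyte markers 7 and 5 were higher; their part was not tested.

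TGFα/Myc livers after 4 weeks off differed from their tumors in 8 genes: Impdh1, Aprt, Cad, Rrm1, Tyms and Nme2 were lower and Paics and Gmps higher, against 4% lower and 3.83% higher of all genes. Rrm1 fell by 2.08 (adjusted p = 0.0137) and Cad by 1.91 (adjusted p = 0.0204). After 12 weeks Rrm1, Dtymk and Nme2 were lower and Paics higher, against 2.31% and 2.14%. Groups did not overlap, with the off livers lower, in 9 genes at 4 weeks (12.2% of all genes) and 10 at 12 weeks (13%). Without background subtraction, 1 gene was higher and 9 lower at 12 weeks, as with the Agilent ratio and the series matrix. Nme2 read 1.74, 1.35 and 1.00 in the tumors, -0.29, -0.34 and 0.13 after 4 weeks and -0.73, -0.30 and -0.25 after 12 weeks, so that neither off group overlapped the tumors; it fell by 1.53 and 1.79 (adjusted p = 0.0126 and 0.00691). The spot was saturated in 1 of the 3 tumors and 1 of the 3 livers off for 4 weeks. The 4-week call was lost with the Agilent ratio, at -0.80 (adjusted p = 0.148), and from the Cy3 channel alone, at -0.50 (0.0837), where the 12-week differences were -1.19 and -0.999 and kept their call. Without TGFα/Myc tumor 1 the counts of called genes were 1 and 1, and without tumor 3 they were 9 and 8. The 4-week count was 4, 2 and 5 without off liver 1, 2 or 3, and the 12-week count was 2 without any of its off livers. With slide as a random block Paics alone, higher in the off livers, was called at either time, and no off liver shared a scan day with a tumor.

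Few of these genes were called between livers with transgenes off and control livers. Single differences ran from -1.02 to 1.06 after Myc off for 12 weeks and from -1.04 to 1.24 after TGFα off for 4 weeks. With 2 or 3 arrays a group, a missing call does not show equal levels. No member was called after Myc off for 4 or 12 weeks, TGFα off for 12 weeks or TGFα/Myc off for 12 weeks by limma, where 0.00881%, 0.145%, 0.0969% and 0.0176% of all genes were called in either direction; 0, 3, 2 and 1 members had an unadjusted p under 0.05. After TGFα off for 4 weeks (2 arrays) Paics was higher (1.24 ± 0.27, adjusted p = 0.0274; 0.203% of all genes), and after TGFα/Myc off for 4 weeks Paics (1.13 ± 0.24, adjusted p = 0.0081) and Gmps (1.11 ± 0.29, adjusted p = 0.0282) were higher (2.91% of all genes). Of all genes, 0.546% and 2.47% were lower in these comparisons, and 0 members. Without control 3, Paics was called in neither (adjusted p = 0.188 and 0.0745), and after TGFα off it was not called without either of the 2 off livers (adjusted p = 0.448 and 0.160). Gmps was not called without control 1 or 3, without off liver 2 or 3 (adjusted p = 0.0591, 0.143, 0.0657 and 0.108), or with the array in doubt left out. All 6 comparisons share the 3 control arrays. TGFα off 4 weeks replicates 2 and 3 and TGFα/Myc off 4 weeks replicates 1 and 2 lay on the same slide and scan day, which held no control. Their calls are therefore not independent. With slide as a random block (within-slide correlation 0.437), 0 of the TGFα and 1 of the TGFα/Myc calls were kept.

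Paics carries consecutive steps of the purine chain. At its brightest probe it read -1.12, -1.05 and -1.82 in controls. It read -0.896, -0.999 and -0.952 after Myc off for 4 weeks, and -0.19, -0.09 and -1.13 after 12 weeks. After TGFα off it read -0.04 and -0.14 at 4 weeks, and -0.29, -0.28 and -0.80 at 12 weeks. After TGFα/Myc off it read -0.28, -0.11 and -0.22 at 4 weeks, and -0.11, -0.17 and -0.0033 at 12 weeks. Of the 17 off livers in the fit, 16 lay above every control, as they did for Rrm2; at least 16 did so in 1.16% of all genes measured on these arrays. Many of these 17 shared a slide with other off livers and with no control, so they are not independent readings. At the second, dimmer Paics probe 5 of 17 lay above every control, where controls 1, 2 and 3 read -1.88, -0.77 and -2.07. After TGFα and TGFα/Myc off for 4 weeks that probe differed by 1.16 and 0.93, against 1.24 and 1.13 at the brightest probe. After Myc off it differed by 0.75 at 4 weeks and 0.76 at 12 weeks, against 0.38 and 0.86. At 12 weeks it gave -0.42 after TGFα off and 0.49 after TGFα/Myc off, against 0.87 and 1.23. The second probe was called in none of the 6 off groups.

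**Figure D4:**
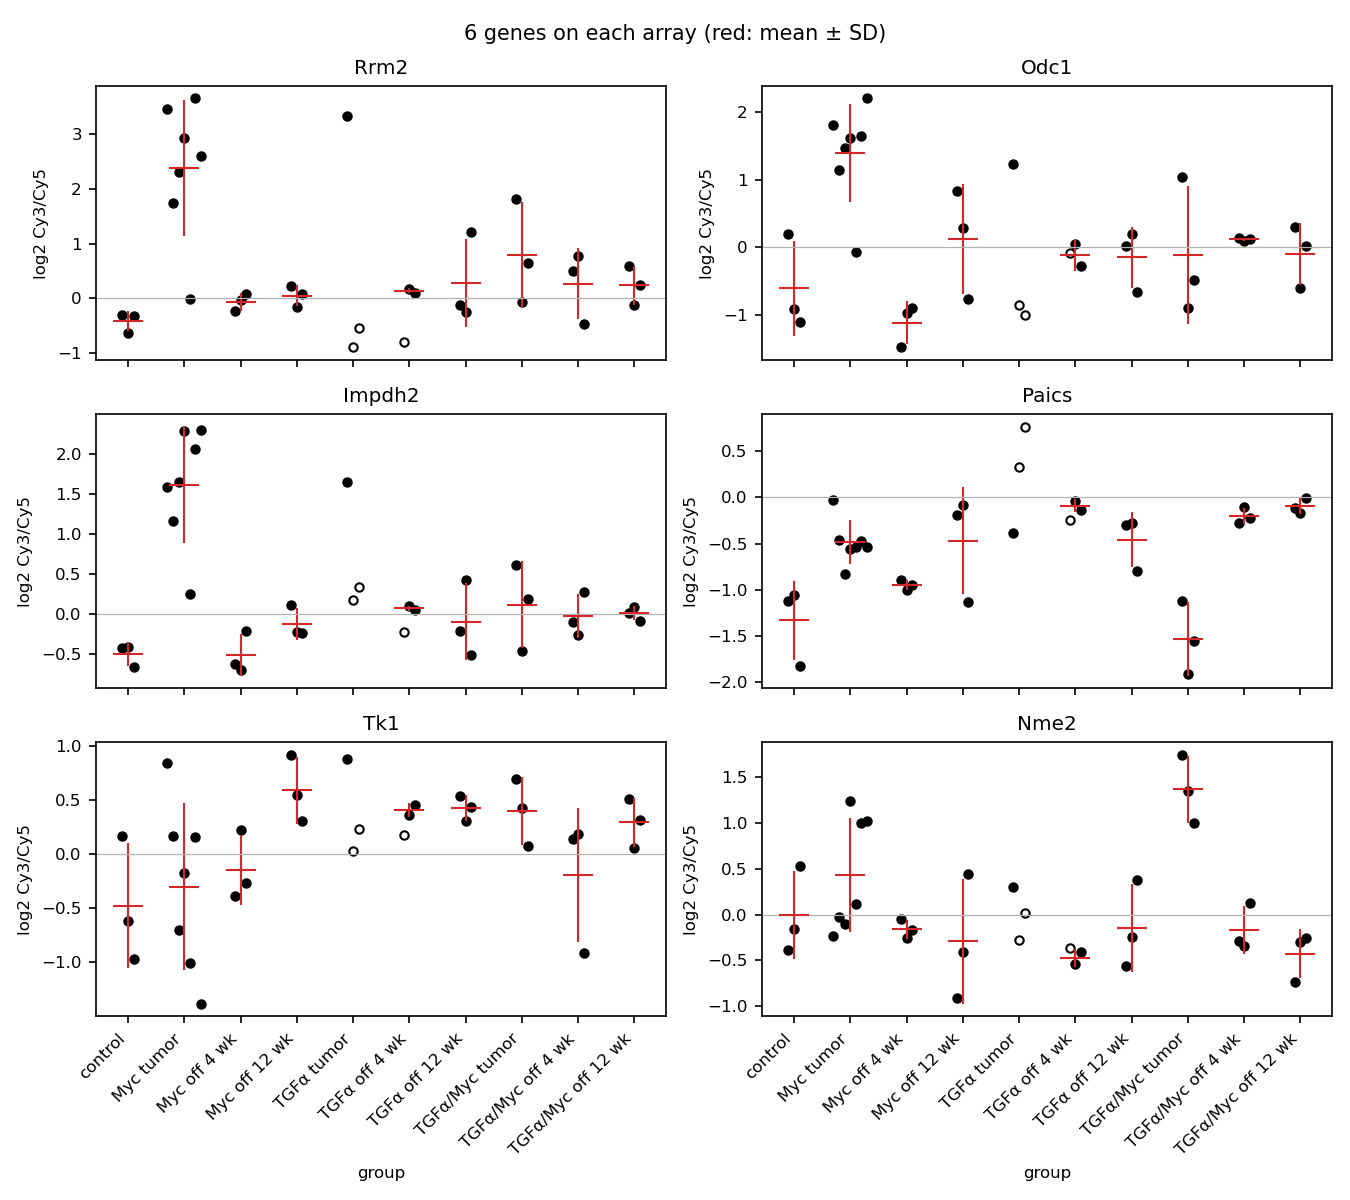
Log2 of sample over reference (y axis) of 6 genes on each array (points), by group (x axis); red bars are mean ± SD over filled points, and open points are the arrays set apart. Rrm2, Odc1 and Impdh2 are high in 6 of 7 Myc tumors, Paics is lowest in controls and TGFα/Myc tumors, Tk1 overlaps between controls and Myc tumors, and Nme2 is high in all 3 TGFα/Myc tumors.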

How the data were processed

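The scanner files hold the mean and background intensity of each spot in both channels, as deposited by the authors, and a log10 ratio of red over green that, per the file headers, Agilent Feature Extraction made from processed signals. The deposited series matrix holds log2 ratios, taken as red over green because each column correlated with the scanner ratio at r between 0.869 and 0.991 over the brighter genes; its centring is not stated, its column medians ran from -0.37 to 0.45, and limma is named, with no version, in the submitters' processing notes.

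Mean signals were background-corrected (normexp, offset 50), normalized within arrays by loess, and turned to log2 of Cy3 over Cy5. Outlier spots were set to missing and spots of a probe averaged. Probes flagged well above background in the Cy3 channel of 3 or more of the 34 arrays were kept (32773 of 41174), and each gene read at its brightest kept probe. Limma 3.58.1 (R 4.3.3) was fitted with 1 coefficient per group over 31 arrays, for 13 comparisons, with Benjamini-Hochberg adjustment. The fit was tested on simulated data. The number of arrays limits precision, and p-values measure only the spread between these samples. The arrays fell on 16 slides and 12 scan days. No label says that equal replicate numbers pair the samples. Arrays of equal number correlated over 0.1 in all 3 pairs only for 2 comparisons with controls. These were TGFα off 12 weeks (0.187 to 0.388) and TGFα/Myc off 12 weeks (0.295 to 0.422), and the values do not show pairing. The members, lists and tests were chosen with earlier results of these data known. All members are named, and from each related list up to 3 genes per direction with the smallest adjusted p in Myc tumors against controls; further genes named were chosen after their values were seen. A gene that the rule names is not reported here.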

Additional observations from a re-analysis of the deposited data

Results flagged for a closer look

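Myc tumor 5 lay far below the other 6 Myc tumors in 5 genes, by the gap to the nearest tumor relative to the range of the 7. Its values were 0.39 for Impdh1 (next lowest 2.00), 0.57 for Rrm1 (2.90), 0.34 for Tyms (1.83), -0.055 for Dut (1.65) and -0.50 for Srm (1.56). Chance flags about 1 in 20 groups, and 33 were examined. These groups are genes on the same 7 arrays and all 5 flags fell on 1 array. The rate therefore gives no expected count to set the flags against.

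The difference between Myc and TGFα/Myc tumors, which is also the difference between their changes from the shared controls, passed the test in 13 genes. It was 1.65 for Adsl, 0.82 for Adss, 0.86 for Dck, 1.13 for Dhodh, 0.92 for Gmps, 0.81 for Guk1, 0.87 for Hprt, 1.50 for Impdh2, 1.52 for Odc1, 1.04 for Paics, 1.59 for Rrm2 and 1.17 for Uck2, and -0.93 for Nme2. Several of these did not hold under other settings. From the Cy3 channel alone, without background subtraction, with the Agilent ratio and with the series matrix, Rrm2 ran from 0.43 to 0.84 and Nme2 from -0.67 to -0.25, with no call. Without TGFα/Myc tumor 3 Uck2 was 0.65 and Dhodh 0.75, and without TGFα/Myc tumor 2 Odc1 was 1.13, Gmps 0.56 and Guk1 0.47, none of them called.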

How the results depend on the processing

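No called gene changed direction under any alternative run. In Myc tumors against controls 25 genes were called, 20 with only the groups compared and 22 to 28 without 1 array. The scan-day block is not counted there, since it rests on Myc tumor 1 and control 2. The counts below moved by over 1.5 times, and the cause was not tested. The share of all genes called moved too. For TGFα/Myc tumors against controls it was 2.85% higher and 2.97% lower with the series matrix, against 1.08% and 0.955% in the main fit. Counts under other settings or without 1 array are given without that share unless stated, so they are not results about these genes alone.

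For TGFα/Myc tumors against controls (1 called), 5 were called without background subtraction, with the Agilent ratio and with the series matrix, 7 with the Cy3 channel alone, 3 with a stricter filter on dim probes, and 0 with slide as a random block, with only the groups compared and with all 34 arrays. For TGFα/Myc off 12 weeks against tumors (4 called), 10 were called without background subtraction, with the Agilent ratio and with the series matrix, 8 (1 higher, 7 lower) with Cy3 alone, 2 with the mean of all probes and with all 34 arrays, and 1 with slide, with scan day and with only the groups compared. For TGFα/Myc off 4 weeks against tumors (8 called), 1 was called with slide, 0 with only the groups compared and 5 (2 higher, 3 lower) with all 34 arrays. Myc against TGFα/Myc tumors (13 called) gave 8 with slide and 1 with only the groups compared. With scan day, comparisons with Myc tumors rest on Myc tumor 1, so their counts are not given. TGFα off 4 weeks against controls (1) gave 0 with the Agilent ratio, Cy3 alone, the series matrix, slide and only the groups compared. TGFα/Myc off 4 weeks against controls (2) gave 1 with the Agilent ratio and with slide, and 0 with Cy3 alone and only the groups compared. TGFα/Myc off 12 weeks against controls (0) gave 1 without background subtraction and with the series matrix.

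The 2 alternatives chosen after seeing the data were leaving out the arrays in doubt, which gave 13 for TGFα/Myc tumors against controls, 14 (1 higher, 13 lower) for TGFα/Myc off 12 weeks against tumors and 1 for TGFα/Myc off 4 weeks against controls, and using the first scanner only, which leaves Myc tumor 1. With that scanner the median difference of Myc tumors from controls was 1.81 for purine genes and 1.27 for PRPP and phosphate-transfer genes. The latter was 1.39 with scan day as a block, which compares Myc tumor 1 with control 2.

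With the replicate number as a block, 7 genes were called for TGFα/Myc tumors against controls, 9 (1 higher, 8 lower) for TGFα/Myc off 12 weeks against tumors, and 27 for Myc tumors against controls. In these comparisons the correlations did not pass 0.1 in all pairs. For TGFα off 12 weeks and TGFα/Myc off 12 weeks against controls, where they did, the block changed no call.

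Without 1 array at a time, the counts ran from 0 to 4 for TGFα/Myc tumors against controls, 3 to 21 for Myc against TGFα/Myc tumors, 1 to 9 and 1 to 8 for TGFα/Myc off 4 and 12 weeks against tumors, 0 to 2 for TGFα/Myc off 4 weeks against controls, and 0 to 1 for Myc off 12 weeks, TGFα off 4 weeks and TGFα/Myc off 12 weeks against controls. The scan-day block could not be fitted for comparisons with TGFα or TGFα/Myc off 4 weeks. The series matrix moved the median of all genes by -0.18 for TGFα/Myc tumors against controls, 0.18 for Myc against TGFα/Myc tumors, 0.13 for Myc off 12 weeks against tumors, 0.33 for TGFα/Myc off 4 weeks against tumors, and -0.20 and 0.10 for TGFα off 12 weeks and TGFα/Myc off 4 weeks against controls. Saturated spots bound what could be read for Nme2 and Odc1.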

Other observations

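Among the off livers, some members stood apart from the controls without passing the test. Of the 17 off livers in the fit, 16 lay below every control for Cad, Dtymk and Sms, and 13 for Nme1, while 14 lay above every control for Impdh2 and 13 for Dhodh. Of all genes measured on these arrays, 1.75% had at least 16 off livers below every control and 8.84% at least 13, while 3.81% had at least 14 above and 5.81% at least 13. For Dtymk the difference from controls after Myc off for 12 weeks was -1.02 ± 0.48 (limma, adjusted p = 0.416). The groups share the 3 control arrays, and many off livers shared a slide with each other and with no control. These counts were chosen after the values were seen.

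The dimmer probe of Ppat differed by 1.43 between Myc tumors and controls (limma, adjusted p = 0.000373), and the brightest by 0.72. The dimmest probes of Gmps and Cad differed by -0.37 and -0.018, and that of Tyms, A_51_P375761, by -0.37 (adjusted p = 0.0345).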
